A study of Mus musculus with 14 samples.

Results

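The 10 circadian clock genes described here are Arntl, Per1, Per2, Per3, Cry1, Cry2, Nr1d1, Nr1d2, Dbp and Tef. They were taken by symbol from the annotation of a whole-genome Agilent array and read by 18 probes, among 19532 named genes in all. Skin of 4-week-old female mice was measured in 4 Tsk2 mice and 4 WT mice, 1 array each. Fibroblasts from Col3a1 knockout mice, which lack the type III collagen gene in both groups, were measured after transfection with WT Col3a1 (3 arrays) or Tsk2 Col3a1 (3 arrays). Tsk2 mice carry a mutant allele of Col3a1 and develop tight, fibrotic skin, and the title of the series writes their genotype as Tsk2/+. The design text counts 3 mice per genotype, while 4 arrays per genotype were given and used. The labels give no strain, no clock time of collection and no light schedule, and they do not say whether the fibroblasts are 1 clone or whether the cultures were synchronised. Whether the 3 fibroblast arrays of a group hold RNA of different cultures is not labelled either, so their spread may be technical, and the p-values there measure that spread alone.

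The mammalian clock is a feedback loop that runs in nearly every cell, skin cells included. Arntl (BMAL1) pairs with CLOCK, binds E-boxes and switches on the Per, Cry, Nr1d, Dbp and Tef genes. PER and CRY proteins then block that pair, the REV-ERB receptors made by Nr1d1 and Nr1d2 repress Arntl through ROR elements, and DBP and TEF act on D-boxes. In mouse tissues Arntl therefore peaks roughly opposite to Per2 and Dbp, the REV-ERB genes peak ahead of the Per genes, and Cry1 lags behind them. Skin taken at 1 clock time shows 1 slice of that cycle, and unsynchronised cells in culture show an average over it.

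All values are log2 ratios of a sample to the same universal mouse reference RNA, so 0 means the level of the reference. A ratio can be compared between samples for 1 gene, and is no measure of how abundant one gene is against another. Of the 18 probes, 8 had no repeated value on the skin arrays. A repeated value, one that occurs 50 times or more on an array, was taken as a mark of a dim probe. It held for 33.8% to 46.7% of the probes per array. Intensities were not used, so dimness itself was not measured. Arntl, Per1, Dbp and Nr1d2 were each read by 1 such clean probe, and Per2, Cry2, Nr1d1 and Tef by 1 clean probe beside others. Per3 had 2 repeated values on the skin arrays, and both Cry1 probes had some. Per array 312 to 12391 probes were listed at exactly 0, the most in WT skin replicate 2 (30.1%), which stands apart for that reason. Keratinocyte markers averaged 4.20 to 5.46 in skin and 0.097 to 0.26 in the fibroblasts, which sets the skin arrays apart by label. The dermal fibroblast list averaged 1.33 to 1.85 in the cultured cells and 1.74 to 3.08 in skin, so it lies above the reference in both and does not mark the cultures against skin.

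Start windows of 5 members are shown because each holds a letter match to 1 of the 3 elements through which the clock genes act on each other. Windows run from 250 bases before to 50 from a listed start on, from RefSeq on GRCm38.p6, and 12 windows were found for 9 members. Positions are counted from that listed start, which need not be the outer end of the gene. The span of Per1 begins at chr11:69095108 and that of Arntl at chr7:113178471, so the windows of both lie inside the gene. The same holds for the Tef window chr15:81811164-81811463. Capitals mark the E-box CACGTG, the D-box TTATGTAA or the ROR element core TAGGTCA, each searched on both strands. Of 32851 such windows, 7.15% hold the E-box, 0.938% the D-box and 2.61% the ROR core. The E-box stands at -166 in the Per1 window chr11:69098699-69098998 (plus strand), at -60 in the Cry1 window chr10:85185005-85185304 (minus strand) and at -127 in the Tef window chr15:81802423-81802722 (plus strand). A further Tef window, chr15:81811164-81811463, also holds the E-box, at -138, and a further Per1 window, chr11:69099902-69100201, holds none of the 3 strings. The D-box stands 2 times in the Per3 window chr4:151044616-151044915 (minus strand), at -205 and -158, and the ROR core at +30 of 1 of the Arntl windows, chr7:113207261-113207560 (plus strand).
Arntl: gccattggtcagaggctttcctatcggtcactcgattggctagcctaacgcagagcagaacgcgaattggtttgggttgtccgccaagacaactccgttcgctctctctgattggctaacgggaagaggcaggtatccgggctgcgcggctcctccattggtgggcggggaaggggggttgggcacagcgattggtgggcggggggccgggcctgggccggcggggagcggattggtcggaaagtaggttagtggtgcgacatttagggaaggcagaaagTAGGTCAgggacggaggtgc
Per1: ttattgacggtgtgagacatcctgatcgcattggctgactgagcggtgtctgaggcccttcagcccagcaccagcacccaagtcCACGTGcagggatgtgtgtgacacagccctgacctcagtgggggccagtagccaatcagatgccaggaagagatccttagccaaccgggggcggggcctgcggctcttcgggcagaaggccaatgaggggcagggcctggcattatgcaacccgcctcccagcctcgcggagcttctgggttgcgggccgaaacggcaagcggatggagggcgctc
Cry1: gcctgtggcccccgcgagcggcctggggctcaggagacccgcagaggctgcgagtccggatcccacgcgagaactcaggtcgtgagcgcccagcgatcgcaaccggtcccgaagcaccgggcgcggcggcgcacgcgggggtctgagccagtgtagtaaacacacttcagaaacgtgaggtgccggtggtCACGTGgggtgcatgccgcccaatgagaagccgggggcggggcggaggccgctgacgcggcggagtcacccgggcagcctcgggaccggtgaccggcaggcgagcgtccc
Tef: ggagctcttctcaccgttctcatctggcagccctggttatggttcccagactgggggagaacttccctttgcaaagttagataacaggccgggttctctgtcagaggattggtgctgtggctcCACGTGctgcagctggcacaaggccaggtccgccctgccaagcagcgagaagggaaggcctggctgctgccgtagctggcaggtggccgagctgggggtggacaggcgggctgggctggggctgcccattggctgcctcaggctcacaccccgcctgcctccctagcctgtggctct
Per3: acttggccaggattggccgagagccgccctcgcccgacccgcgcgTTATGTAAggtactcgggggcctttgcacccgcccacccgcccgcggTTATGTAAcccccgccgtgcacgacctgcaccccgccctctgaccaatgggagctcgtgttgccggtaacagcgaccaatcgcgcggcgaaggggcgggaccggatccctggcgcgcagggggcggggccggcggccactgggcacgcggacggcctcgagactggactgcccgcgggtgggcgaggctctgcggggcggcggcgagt
The windows of the other 4 members with one (Cry2, Dbp, Nr1d1 and Nr1d2) held none of these 3 strings. A match is a description of letters and not a measured binding site.

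Arntl, the activator of the loop, had the largest ratio of SDs between Tsk2 and WT skin among the 10 clock genes. In WT skin it read 0.067, -0.19, 0.14 and -0.043 in replicates 1 to 4. In Tsk2 skin it read 0.58 and 1.30 in replicates 1 and 2, and -0.57 and -0.24 in replicates 3 and 4. Tsk2 mice 1 and 2 lay above every WT mouse and Tsk2 mice 3 and 4 below every WT mouse, so the WT values sat inside the gap. The SD was 0.84 in Tsk2 skin and 0.14 in WT skin. Among all genes those SDs stood at percentile 95.2 and 14.2 of their group, where the median SDs were 0.29 and 0.32. The means differed by 0.28 ± 0.37 (SE, n = 4 each; limma adjusted p = 0.697).

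**Figure D1:**
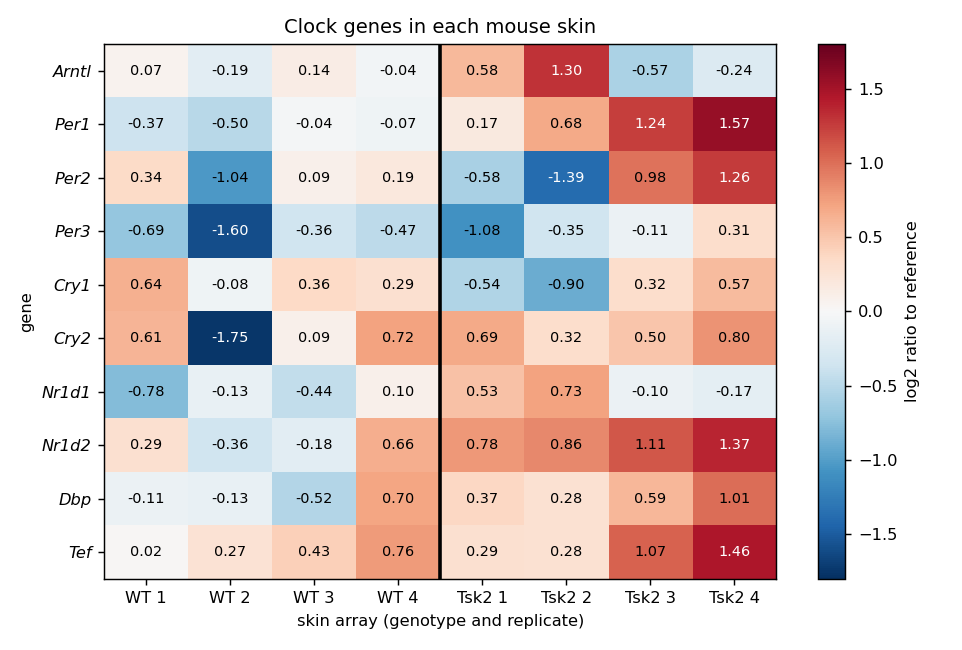
Log2 ratio to the reference of each clock gene (rows) in each of the 8 skin arrays (columns, WT left of the line, Tsk2 right), with the colour scale running from blue (below the reference) to red (above). Arntl is 0.58 and 1.30 in Tsk2 mice 1 and 2 and -0.57 and -0.24 in Tsk2 mice 3 and 4, while Per2 has the opposite signs in the same mice.

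The Per genes, the repressors that follow Arntl, did not move as one. Per1 read -0.37, -0.50, -0.040 and -0.072 in WT skin. It read 0.17, 0.68, 1.24 and 1.57 in Tsk2 skin. Each Tsk2 mouse lay above each WT mouse, and the difference was 1.16 ± 0.30 (SE; 95% interval 0.48 to 1.84; limma adjusted p = 0.0697), which missed the threshold of 0.05. Without Tsk2 mouse 1 it was 1.41 (adjusted p = 0.0378), and without WT mouse 1 it was 1.12 (adjusted p = 0.172). Per1 is induced by glucocorticoids and by cAMP signalling as well as by the clock pair.

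Per2 spread more than almost any other gene among the Tsk2 mice. Its gene value, the mean of 2 probes, was 0.34, -1.04, 0.087 and 0.19 in WT skin and -0.58, -1.39, 0.98 and 1.26 in Tsk2 skin. The groups overlapped throughout, with Tsk2 mice 3 and 4 above all WT mice and Tsk2 mouse 2 below all of them. The SD of 1.26 in Tsk2 skin stood at percentile 99.3 of all genes. The genotypes differed by 0.17 ± 0.60 (SE; adjusted p = 0.888). The clean probe alone gave 0.62, -2.60, 0.26 and 0.46 in WT mice and -1.09, -1.96, 1.91 and 2.28 in Tsk2 mice. The other probe, with 2 repeated values, stayed between -0.82 and 0.53, so the 2 probes of Per2 disagree in the size of the spread and, by genotype, in sign (0.60 and -0.26). The low WT value came from replicate 2, the array with the most exact zeros, and without it the genotypes differed by -0.14 (adjusted p = 0.915). Per3, the member of the family least needed for rhythm in mice, ranged from -1.60 to -0.36 in WT skin and from -1.08 to 0.31 in Tsk2 skin, a difference of 0.47 ± 0.36 (SE; adjusted p = 0.468). Its lowest WT value also came from replicate 2, without which the difference was 0.20 (adjusted p = 0.750).

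The cryptochromes, which carry the repression of the CLOCK and BMAL1 pair, differed from each other in pattern. Cry1 read 0.64, -0.081, 0.36 and 0.29 in WT skin and -0.54, -0.90, 0.32 and 0.57 in Tsk2 skin. Only Tsk2 mice 1 and 2, the mice of highest Arntl, lay below all WT mice, and the genotypes overlapped. Cry1 was the only member with a mean below that of WT, by -0.44 ± 0.34 (SE; adjusted p = 0.473). Cry2 ranged from 0.32 to 0.80 in Tsk2 skin and from -1.75 to 0.72 in WT skin, where the lowest value again came from WT replicate 2. Its difference was 0.66 ± 0.50 (SE; adjusted p = 0.467), and 0.10 without that array (adjusted p = 0.809). One of its 2 probes had repeated values on 6 of the 8 skin arrays, and the clean probe differed by 0.81 ± 0.31 (SE; adjusted p = 0.180 with each probe tested on its own).

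The REV-ERB genes, which repress Arntl, lay above WT in the mean in Tsk2 skin without passing the test. Nr1d2 (REV-ERB beta) read 0.29, -0.36, -0.18 and 0.66 in WT mice. It read 0.78, 0.86, 1.11 and 1.37 in Tsk2 mice, all above the highest WT mouse. The difference was 0.93 ± 0.25 (SE; 95% interval 0.36 to 1.50; limma adjusted p = 0.0786). It was 1.12 without WT mouse 4 (adjusted p = 0.0239) and 0.82 without Tsk2 mouse 4 (adjusted p = 0.195). Nr1d1 (REV-ERB alpha) read -0.78, -0.13, -0.44 and 0.096 in WT mice and 0.53, 0.73, -0.10 and -0.17 in Tsk2 mice. Here Tsk2 mice 1 and 2 were the highest of all 8, and Tsk2 mice 3 and 4 lay among the WT mice. Its difference was 0.56 ± 0.27 (SE; adjusted p = 0.261). The clean Nr1d1 probe set the mice further apart, at -1.01, -0.86, -0.94 and 0.45 in WT and 1.35, 1.76, -0.13 and -0.46 in Tsk2 skin.

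Dbp and Tef, related transcription factors that pass the rhythm on to D-box genes, were also not past the threshold. Dbp read -0.11, -0.13, -0.52 and 0.70 in WT skin and 0.37, 0.28, 0.59 and 1.01 in Tsk2 skin. The Tsk2 mice lay above 3 of the WT mice, and WT mouse 4 lay among them, with a difference of 0.58 ± 0.28 (SE; adjusted p = 0.259). Tef read 0.022, 0.27, 0.43 and 0.76 in WT skin and 0.29, 0.28, 1.07 and 1.46 in Tsk2 skin. Tsk2 mice 3 and 4 had the highest Tef values of the 8 and the lowest Arntl values. The genotypes overlapped for Tef, and the difference was 0.40 ± 0.30 (SE; adjusted p = 0.458).

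Across the 10 members, 0 passed the limma test between Tsk2 and WT skin at an adjusted p of 0.05, where 2.91% of the 19532 genes did. At an unadjusted p under 0.05 there were 2 members, Per1 and Nr1d2, against 23.1% of all genes. The same 2 were the members whose groups did not overlap, against 16.1% of all genes, so both counts are close to the background. The Tsk2 mean was the higher one for 9 of 10 members, against 52.7% of all genes. The median difference of the members was 0.52, and that over all genes was 0.030. Members respond to the same loop and are not independent of each other. Without Tsk2 mouse 2, 3 or 4, or WT mouse 1, 2 or 3, limma called 0 of all genes in skin (3473 to 4145 at an unadjusted p under 0.05), so the calls in skin given below rest on each of these mice.

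**Figure D2:**
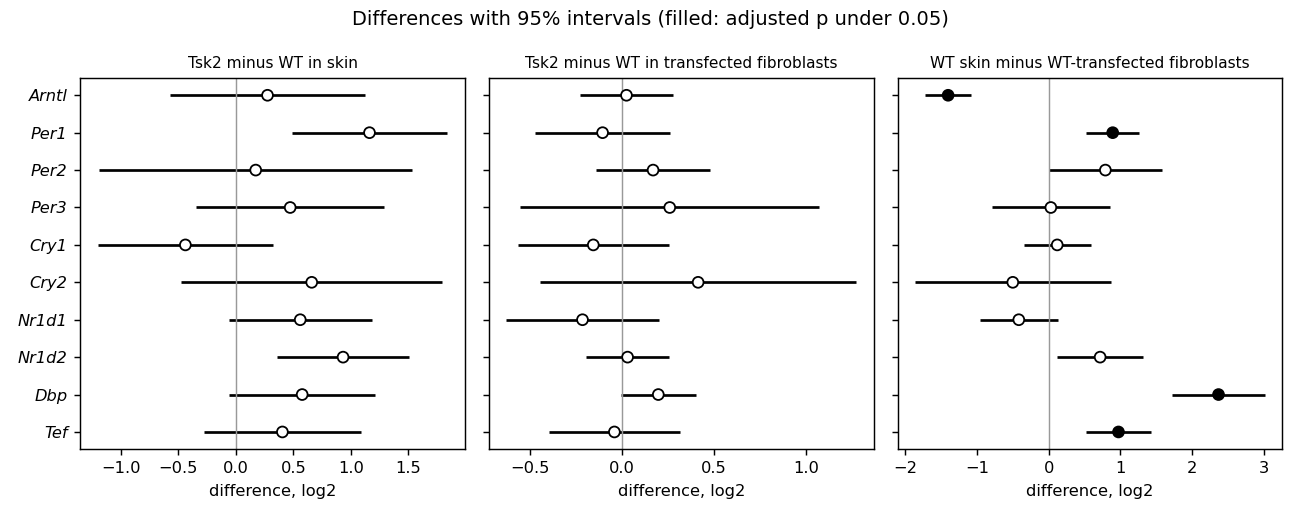
Difference in log2 ratio for each clock gene (points) with its 95% interval (lines) for Tsk2 minus WT in skin, Tsk2 minus WT in transfected fibroblasts, and WT skin minus WT-transfected fibroblasts, with filled points for an adjusted p under 0.05. Per1 (1.16) and Nr1d2 (0.93) have skin intervals above 0 and open points, and filled points appear only in the right panel, for Arntl, Per1, Dbp and Tef.

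The values of each mouse were then set against its own Arntl, since in a running clock the activator and its targets move apart. Per2 minus Arntl was 0.27, -0.85, -0.050 and 0.23 in WT mice. It was -1.16 and -2.69 in Tsk2 mice 1 and 2, and 1.54 and 1.50 in Tsk2 mice 3 and 4. All Tsk2 mice lay outside the WT range, 2 on each side. Dbp minus Arntl ran from -0.66 to 0.75 in WT mice and was -0.21, -1.02, 1.16 and 1.25 in Tsk2 mice. Nr1d1 minus Arntl did not show this split. It ran from -0.85 to 0.14 in WT mice and was -0.054, -0.57, 0.46 and 0.067 in Tsk2 mice. Only Tsk2 mouse 3 lay outside the WT range there. The mean of the 9 other members minus Arntl ran from -0.40 to 0.36 in WT mice. It was -0.51, -1.24, 1.19 and 1.15 in Tsk2 mice. Each of these differences contains the split of Arntl itself, so it is no separate sign of a split. Dbp alone was 0.37 and 0.28 in Tsk2 mice 1 and 2, above WT mice 1 to 3. In their own values Tsk2 mice 1 and 2 combined high Arntl and Nr1d1 with low Per2 and Cry1. Tsk2 mice 3 and 4 combined low Arntl with high Per1, Per2 and Tef. These pairs were noticed from the values, so they were not compared by a test. In the labels the mice of each pair carry consecutive or near animal numbers, and the labels do not say what those numbers mark. Clock time of collection is not in the labels, so between the groups genotype and clock time cannot be told apart. The split itself lies within the Tsk2 mice, which share genotype, sex and age in the labels. Its source was not tested.

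Over the 8 mice Arntl correlated negatively with Cry1 and with Per2, and neither relation passed the adjustment over the 9 relations computed. For Cry1 Pearson's r was -0.811 (exact permutation p = 0.0158, adjusted p = 0.139) and Spearman's rho was -0.476 (exact permutation p = 0.243, adjusted p = 0.673). For Per2 r was -0.735 (exact permutation p = 0.0308, adjusted p = 0.139) and rho was -0.714 (exact permutation p = 0.0576, adjusted p = 0.518). Without Tsk2 mice 2 and 3, the mice farthest from the median of Arntl, r was -0.639 for Cry1 (exact permutation p = 0.168) and -0.367 for Per2 (exact permutation p = 0.474). The Per2 relation thus shrank without those mice, and the Cry1 relation kept most of its size over the 6 that were left. Nr1d1 had the only sizeable positive r, 0.657 (exact permutation p = 0.0766, adjusted p = 0.230), with a rho of 0.357. The r was -0.533 for Tef and -0.183 for Dbp, and between -0.131 and 0.129 for Per1, Per3, Cry2 and Nr1d2. After the genotype means were subtracted, r was -0.804 for Cry1, -0.791 for Per2, -0.747 for Tef and -0.610 for Per1. The lowest adjusted p was 0.073 by permutation over all 8 mice. That p is not exact and may be too small, since the deviations were exchanged between genotypes.

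**Figure D3:**
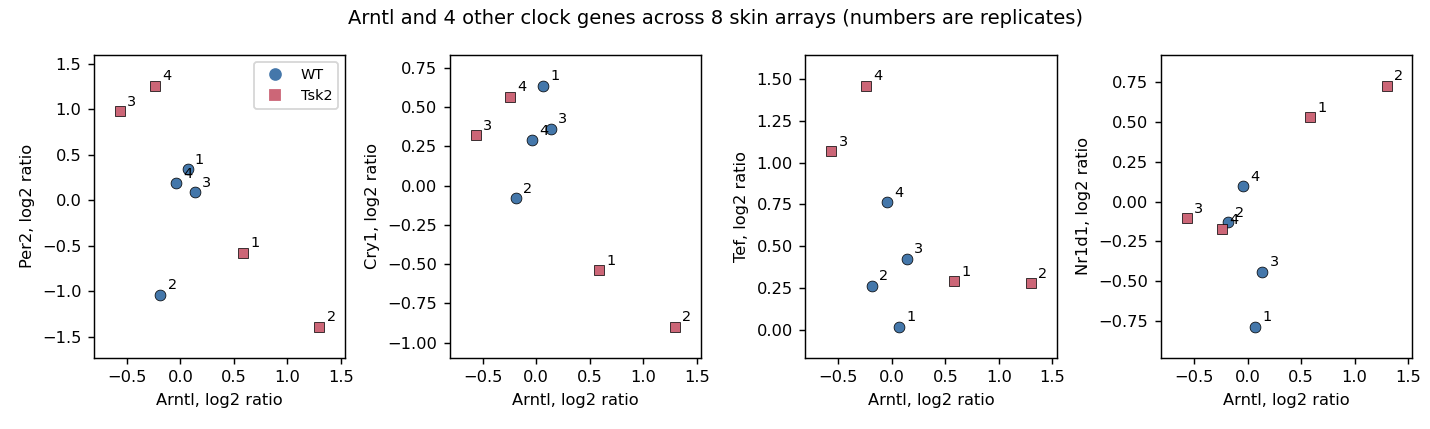
Log2 ratio of Per2, Cry1, Tef and Nr1d1 (y axes) against that of Arntl (x axes) in the 8 skin arrays, with circles for WT, squares for Tsk2 and the replicate number beside each point. Tsk2 mice 1 and 2 lie at high Arntl with low Per2 and Cry1, Tsk2 mice 3 and 4 at low Arntl with high Per2 and Tef, and the WT mice lie between them on the Arntl axis.

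In the transfected fibroblasts the clock genes differed little between the alleles. The limma test called 0 of 10 members (0.0512% of all genes), and 0 had an unadjusted p under 0.05 (11.2% of all genes). The differences ran from -0.21 for Nr1d1 to 0.41 for Cry2, with a median of 0.028 against -0.00033 over all genes. Dbp was the only member without overlap between groups, against 20% of all genes. It read -2.36, -2.37 and -2.42 with the WT allele and -2.15, -2.18 and -2.23 with the Tsk2 allele, each Tsk2 array a little above each WT array. That difference was 0.20 ± 0.082 (SE, n = 3 each; adjusted p = 0.451). Arntl read 1.53, 1.33 and 1.34 with the WT allele and 1.34, 1.50 and 1.43 with the Tsk2 allele, with full overlap and a difference of 0.025 ± 0.10 (SE; 95% interval -0.23 to 0.28; adjusted p = 0.939). Per1 read -1.11, -1.23 and -1.06 with the WT allele and -1.52, -1.14 and -1.06 with the Tsk2 allele (adjusted p = 0.798). The SDs of Arntl and Per2 on the Tsk2-transfected arrays were 0.080 and 0.082. These arrays may hold RNA of the same culture, so their spread cannot be set against the split between Tsk2 mice.

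The effect of the allele in skin minus that in fibroblasts was tested directly. It called 0 of 10 members (1.4% of all genes), with 2 at an unadjusted p under 0.05 (17.5% of all genes). Per1 had the largest value, 1.27 ± 0.39 (SE; limma adjusted p = 0.123). Nr1d2 followed with 0.90 ± 0.31 (SE; adjusted p = 0.162) and Nr1d1 with 0.77 ± 0.36 (SE; adjusted p = 0.295). Over 17 alternatives the limma adjusted p for Per1 ran from 0.0284 (without Tsk2 skin mouse 1) to 0.253. For Nr1d2 it ran from 0.0267 (without WT skin mouse 4) to 0.308. For each of these genes 16 of the 17 alternatives did not pass.

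The clock genes that separated skin from cultured fibroblasts were Arntl on one side and Dbp, Tef and Per1 on the other. Between WT skin and WT-transfected fibroblasts 4 of 10 members passed the limma test, as did 40.6% of all genes, so a share this size is the background. Dbp averaged -0.014 ± 0.52 (SD, n = 4) in skin and -2.38 ± 0.029 (SD, n = 3) in fibroblasts, 5.16-fold higher in skin (adjusted p = 0.000435). Tef was 0.97 ± 0.19 (SE) higher in skin as the mean of its 4 probes (adjusted p = 0.00568), and these disagreed in size. The clean Tef probe alone averaged 0.70 ± 0.21 (SD, n = 4) in skin and -2.09 ± 0.11 (SD, n = 3) in fibroblasts, a difference of 2.79 (adjusted p = 2.39e-05 by limma), while the 3 with repeated values differed by 0.11, 0.14 and 0.85 and none of these passed. Per1 was 0.89 ± 0.16 (SE) higher in skin (adjusted p = 0.00322). Arntl averaged -0.0065 ± 0.14 (SD, n = 4) in skin and 1.40 ± 0.11 (SD, n = 3) in fibroblasts, 2.65-fold lower in skin (adjusted p = 0.000183). Groups did not overlap for these 4 and for Nr1d2 (48.9% of all genes), which differed by 0.72 ± 0.25 (SE; adjusted p = 0.0591) and by 0.87 without WT skin replicate 2 (adjusted p = 0.0240). Per2 differed by 0.79 ± 0.34 (SE; adjusted p = 0.103) and passed without WT skin replicate 2, at 1.10 (adjusted p = 0.00172). Cells, culture and the RNA extraction kit differ together between skin and fibroblasts, and their parts cannot be told apart. In bulk samples such as these, fewer cells of a type and less RNA per cell cannot be told apart either.

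**Figure D4:**
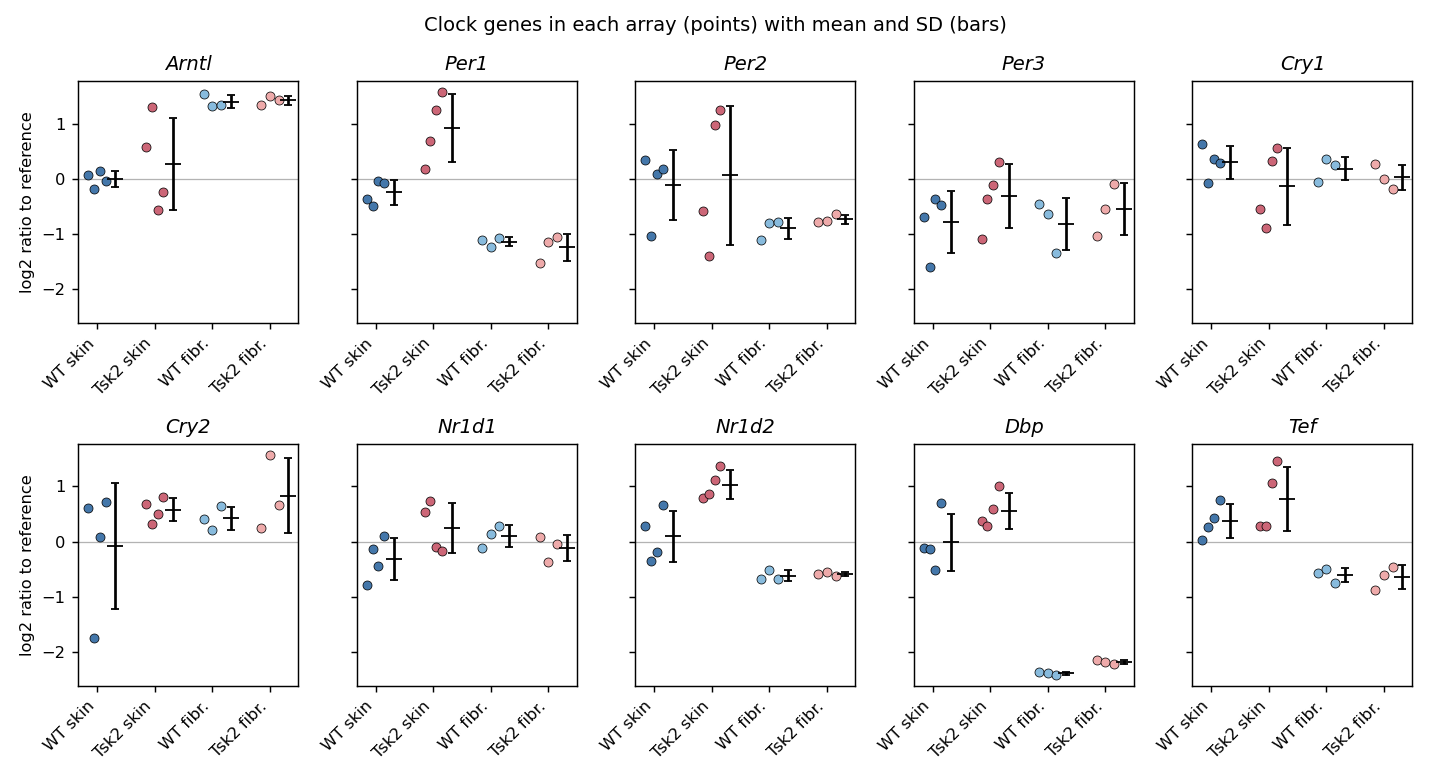
Log2 ratio to the reference of each clock gene in every array (points; 4 WT skins, 4 Tsk2 skins, 3 WT-transfected and 3 Tsk2-transfected fibroblast arrays) with the group mean and SD (horizontal tick and bar). Arntl lies between 1.33 and 1.53 on all fibroblast arrays and Dbp between -2.42 and -2.15, apart from every skin array.

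The order of levels over the 4 groups was the same for Dbp, Nr1d2, Per1, Per2 and Tef in that Tsk2 skin had the highest mean, WT skin came next and both fibroblast groups were lowest. Dbp averaged 0.56 ± 0.33 in Tsk2 skin, -0.014 in WT skin, -2.18 ± 0.040 in Tsk2-transfected and -2.38 in WT-transfected fibroblasts. Nr1d2 averaged 1.03 ± 0.27, 0.10 ± 0.46, -0.59 ± 0.038 and -0.62 ± 0.094 in the same order of groups. Per1 averaged 0.92 ± 0.62 in Tsk2 skin, -0.24 ± 0.22 in WT skin, -1.24 ± 0.25 in Tsk2-transfected and -1.14 ± 0.086 in WT-transfected fibroblasts. Tef averaged 0.77 ± 0.59 in Tsk2 skin, 0.37 ± 0.31 in WT skin, -0.64 ± 0.22 in Tsk2-transfected and -0.60 ± 0.13 in WT-transfected fibroblasts, and Per2 0.066 ± 1.26, -0.11 ± 0.63, -0.73 ± 0.082 and -0.90 ± 0.18. For Arntl the fibroblasts came first, at 1.42 ± 0.080 (Tsk2) and 1.40 (WT), then Tsk2 skin at 0.27 ± 0.84 and WT skin at -0.0065. No neighbours of 1 system in these orders differed past the threshold. The means of Cry1 over the 4 groups stayed between -0.14 and 0.30.

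Other core clock genes gave few calls in skin. Of 18 listed, 16 were measured, and 1 was past the threshold, against 2.91% of all genes, with a median difference of 0.11. The call was Arntl2, a paralogue of Arntl, at 0.998 ± 0.19 (SE; adjusted p = 0.0350), but 93.8% of its skin values were repeated values, so its size is uncertain. Rora, which activates Arntl through the ROR element, differed by 0.71 ± 0.21 (SE; adjusted p = 0.0949) and Clock, the partner of Arntl, by 0.40 ± 0.15 (SE; adjusted p = 0.158). Clock read 0.35 and 0.20 in Tsk2 mice 1 and 2, -0.035 and -0.10 in Tsk2 mice 3 and 4, and -0.41 to -0.20 in WT mice, so the groups did not overlap. Nfil3, the repressor that competes with DBP and TEF at D-boxes, read 0.84, 1.13, 0.98 and 0.017 in WT mice. In Tsk2 mice it read -0.37, -1.09, -0.23 and 0.23. Only WT mouse 4 lay within the Tsk2 range, and the difference was -1.11 ± 0.33 (SE; adjusted p = 0.0986). In fibroblasts 0 of these 16 passed (0.0512% of all genes), and 2 had an unadjusted p under 0.05 (11.2% of all genes).

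Output genes that cycle in most mouse tissues gave no call in skin either. Of 9 measured, 0 passed the limma test, against 2.91% of all genes. An unadjusted p under 0.05 was found for 1, against 23.1% of all genes, and the median difference was 0.40. Tsc22d3 (GILZ), an anti-inflammatory protein that glucocorticoids also induce, read 1.44, 1.07, 1.46 and 1.76 in WT mice. It read 1.26, 2.14, 3.58 and 4.24 in Tsk2 mice. Tsk2 mice 3 and 4 stood far above the rest and Tsk2 mouse 1 lay among the WT mice, with a difference of 1.37 ± 0.59 (SE; adjusted p = 0.207). Wee1, a brake on mitosis driven by E-boxes, differed by 0.82 (adjusted p = 0.407), Ppp1r3c, a glycogen-targeting subunit of protein phosphatase, by 0.70 (adjusted p = 0.342), and Tspan4, a tetraspanin, by 0.63 (adjusted p = 0.264). The mean of the 9 genes was 0.39 to 0.68 in WT mice, 0.36 and 0.63 in Tsk2 mice 1 and 2, and 1.29 and 1.61 in Tsk2 mice 3 and 4. Tsc22d3 is also on the list of glucocorticoid targets below, so the means of both lists share that gene.

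Glucocorticoid targets were read because Per1 is one of the genes that corticosterone induces. Of 15 listed, 14 were measured, 2 rose in Tsk2 skin and 0 fell, against 2.91% of all genes called, with a median difference of 0.57. Pdk4, a kinase that shuts down pyruvate dehydrogenase, read 1.05, 1.03, 0.78 and 1.82 in WT mice and 3.06, 4.73, 5.29 and 5.37 in Tsk2 mice. The groups did not overlap and the difference was 3.44 ± 0.50 (SE; limma adjusted p = 0.0243). Klf9, a zinc-finger factor induced by corticosterone and rhythmic in skin, rose by 1.28 ± 0.23 (SE; adjusted p = 0.0330), from 0.33 to 1.11 in WT mice to 1.57 to 2.34 in Tsk2 mice. Angptl4, an inhibitor of lipoprotein lipase, differed by 0.72 (adjusted p = 0.147) and the cell-cycle inhibitor Cdkn1a by -0.61 (adjusted p = 0.169). The list mean was 0.48 to 0.73 in WT mice and 0.58, 1.06, 1.49 and 1.91 in Tsk2 mice 1 to 4. Per1 has the same order over the Tsk2 mice, 0.17, 0.68, 1.24 and 1.57. So do the means of the clock outputs and of the dermal fibroblast list. Over the WT mice Per1 and the glucocorticoid list do not share an order. Per1 spanned 0.46 over the WT mice and 1.40 over the Tsk2 mice. WT mouse 2, whose array had the most exact zeros, had the highest list mean (0.73) and the lowest Per1 (-0.50). WT mouse 3 had the lowest list mean (0.48) and the highest Per1 (-0.040). The part of the glucocorticoid targets in the Per1 values was not tested.

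Immediate early genes, which handling and tissue stress induce quickly, showed no shared direction. Of 20 measured, 0 rose and 1 fell, a share close to the 2.91% of all genes called, with a median difference of -0.16. Junb, an AP-1 subunit, fell by 0.85 (SE 0.18; adjusted p = 0.0476). Nr4a1, an orphan nuclear receptor, differed by 1.72 ± 0.42 (SE; adjusted p = 0.0620), while the zinc-finger factors Egr1 and Egr2 differed by -1.06 (adjusted p = 0.0942) and -0.97 (adjusted p = 0.0897). The list mean lay between -0.13 and 0.070 in WT mice and between -0.16 and 0.083 in Tsk2 mice. In fibroblasts 0 of the clock outputs, glucocorticoid targets or immediate early genes passed the limma test, with 1 of 9, 4 of 14 and 5 of 20 at an unadjusted p under 0.05 (11.2% of all genes).

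**Figure D5:**
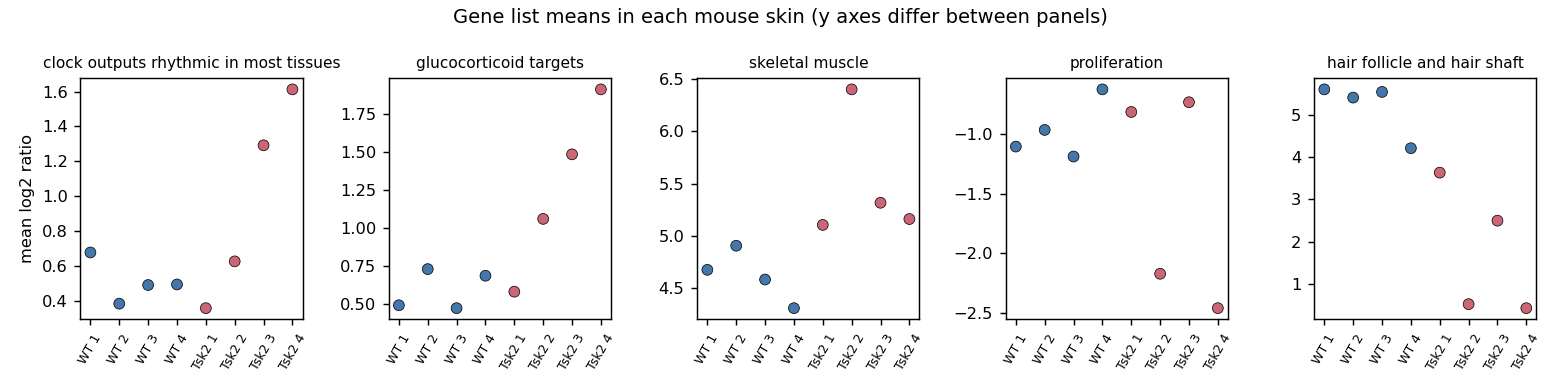
Mean log2 ratio of 5 gene lists (panels, y axes of different range) in each of the 8 skin arrays, with WT mice in blue and Tsk2 mice in red. Clock outputs and glucocorticoid targets are highest in Tsk2 mice 3 and 4, proliferation genes are lowest in Tsk2 mice 2 and 4, and hair genes are lower in every Tsk2 mouse than in every WT mouse.

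Markers of some skin cell types differed between the genotypes, beside shares of 2.91% of all genes called in skin and 23.1% at an unadjusted p under 0.05. Of 17 measured hair follicle and hair shaft genes, 8 fell in Tsk2 skin and 0 rose, and the list mean was 4.21 to 5.60 in WT mice against 3.63, 0.52, 2.50 and 0.43 in Tsk2 mice 1 to 4. Proliferation genes gave 0 calls of 11, with 0 at an unadjusted p under 0.05 by limma, and means of -0.82, -2.17, -0.73 and -2.46 in the Tsk2 mice against -1.19 to -0.63 in WT mice. On both lists Tsk2 mice 2 and 4 are the low ones. Skeletal muscle genes averaged 4.31 to 4.90 in WT and 5.10 to 6.40 in Tsk2 mice, with 1 of 10 past the threshold, and dermal fibroblast genes 1.74 to 2.47 and 2.81 to 3.08, with 2 of 9 past it. Melanocyte genes averaged 2.29 to 3.76 in WT and 1.20 to 2.68 in Tsk2 mice, with 1 of 9 fallen. Keratinocyte (0 of 12), adipocyte (0 of 9), macrophage (0 of 9), T cell (0 of 8) and endothelial (0 of 10) lists gave no call by limma, with 0, 2, 0, 5 and 1 genes at an unadjusted p under 0.05. No marker gene was listed at 0 on a Tsk2 skin array, while WT replicate 2 had 2 melanocyte and 2 endothelial genes at 0. The part of these cell types in the clock gene values was not tested.

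Genes were also ranked by how like Dbp they were over the 8 mice, after the genotype means were subtracted. Of the other members only Nr1d2, Per1 and Arntl could be ranked, and none of these was among the genes most like Dbp. The ranking held 6550 genes without a repeated value or an exact zero on the skin arrays, and clone and locus names are left out of those named here. With these left out, the highest Pearson r was 0.98 for Hoxc6, a homeobox gene. Nos3 (endothelial nitric oxide synthase), Nid2 (a basement membrane protein), Anxa6, Ppp1r3d and Nnmt followed, all at 0.97 or above. The lowest were Uchl3, a ubiquitin hydrolase, at -0.99, then Grb7, Snora3, Sult2b1, Grtp1 and Eif3i, down to -0.96. Of the members that could be ranked, Nr1d2 stood at rank 160 with an r of 0.85, Per1 at rank 1220 with 0.48 and Arntl at rank 4938 with -0.44. These r values over 8 arrays are a description, with no test.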

How the data were processed

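RNA of 14 samples was labelled with Cy5 and hybridised with a universal mouse reference in Cy3, per the labels' protocols. The deposited values are log ratios per probe, taken as log2 of sample over reference. The base is not stated, and values from -9.55 to 10.97 exceed what log10 of scanner signals could reach. Its direction was set by the labelled dyes. How features were extracted, corrected and normalized is not given in the sources used here, and intensities were not used, so distance from background and slide or scan batches were not tested. Column medians lay between 0 and 0.043, which fits centred arrays.

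Of 41174 probes, 32664 had 1 gene symbol, 45 had several and 8465 are unnamed here. A gene's value was the mean of its probes. Samples were grouped by the labels, and columns matching no sample numbered 0. The main test was limma 3.58.1 (R 4.3.3) with lmFit and eBayes over 19532 genes, two-sided, with p-values adjusted by Benjamini and Hochberg and a threshold of 0.05. Only the arrays compared entered a fit, except that the contrast of both effects used all 14. At least 3 values per skin group and 2 per fibroblast group were required. The fits were tested on simulated data with 200 changed genes. A simulated log2 difference of 1 was recovered for 24.5% of them in skin, with 7 false calls. It was recovered for 44.5% in fibroblasts (20 false calls) and for 20% in the contrast of effects (12 false calls). A difference of 2 was recovered for 81% in skin, with 17 false calls. The real skin fit called 568 genes, and 23.1% of all genes had an unadjusted limma p under 0.05. The adjustment was thus stricter in the simulation, and its shares are no estimate of those recovered in skin. Differences near 1 in skin can still be missed. Correlations used all 40320 orders of the 8 mice (scipy 1.17.1). The number of arrays limits the precision.

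The members, lists and motifs were chosen with earlier results of these data known. All members are named whatever their values. Of each list, the genes past the threshold and the 4 of lowest p in skin are named (of the marker lists, counts only). The 6 genes of highest and of lowest r with Dbp are named too, leaving out clone and locus names. The motif letters were settled after the windows had been seen and looser forms tried. Alternatives covered centring, quantile normalization, exact zeros, probe choice, dim probes, array weights, a common fit, eBayes settings, a block and leaving out each array. Transfection replicates 3A and 3B differed by an SD of 0.435, like the other WT pairs (0.441 and 0.444), and were kept as 2 samples.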

Additional observations from a re-analysis of the deposited data

How the results depend on the processing

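Among alternatives on gene values, none took a called clock gene below the threshold. With each probe on its own, 3 of the 4 Tef probes lost the call between WT skin and fibroblasts (0.11 to 0.85), and the most variable one gave 2.79. Over the 10 members, 151 of 160 values in skin, 149 of 160 in fibroblasts, 100 of 110 between WT skin and fibroblasts and 155 of 170 for the contrast of effects kept direction and side of the threshold. Per1 passed in skin in 1 fit on all arrays (adjusted p = 0.0113) and without Tsk2 replicate 1 (1.41, adjusted p = 0.0378), with a highest adjusted p of 0.172 elsewhere. Nr1d2 passed in the same common fit (0.0116) and without WT replicate 4 (1.12, 0.0239), with a highest of 0.195. The contrast of effects passed for Per1 without Tsk2 skin replicate 1 (1.51, 0.0284) and for Nr1d2 without WT skin replicate 4 (1.09, 0.0267). Its highest adjusted p elsewhere was 0.253 for Per1 and 0.308 for Nr1d2. Between WT skin and fibroblasts, Per2 passed with quantile normalization (0.81), Nr1d1 with the most variable probe (-0.92) and Nr1d2 without WT skin replicate 2 (0.87, 0.0240). Signs turned for skin Per2 (-0.00025) and the Per2 contrast (-0.16) with quantile normalization, for fibroblast Tef with array weights (0.0090), for fibroblast Arntl with quantile normalization (-0.19) or 3A and 3B as 1 sample (-0.0079), for Cry1 between WT skin and fibroblasts with the most variable probe (-0.17), and for the correlation of Arntl with Nr1d2 in deviations from the genotype means (-0.339). None of these was called. Leaving out 1 array turned signs within these ranges: skin Per2 -0.22 to 0.66 and Arntl -0.068 to 0.55, fibroblast Per1 -0.19 to 0.037, Per3 -0.0080 to 0.50, Tef -0.14 to 0.077 and Arntl -0.013 to 0.091, WT skin against fibroblasts Per3 -0.24 to 0.30 and Cry2 -0.77 to 0.054, and the contrast of effects Per2 -0.39 to 0.49, Per3 -0.060 to 0.48, Cry2 -0.31 to 0.62 and Arntl -0.093 to 0.53.

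Counts over all genes moved more. In skin the 568 genes became 1123 without dim probes, 1341 with array weights and 2814 in the common fit, and 0 to 1827 without 1 mouse (0 without Tsk2 2, 3 or 4 or WT 1, 2 or 3, with 3473 to 4145 at an unadjusted p under 0.05, and 1827 without WT 4). In fibroblasts 10 became 1 with exact zeros missing, 5 with the most variable probe, 6 with each probe on its own, 16 without dim probes or with array weights, 0 with 3A and 3B as 1 sample (1478 unadjusted) and 0 to 3 without 1 array. A replicate block on the transfection numbers gave 0 (1812 unadjusted) and -0.025 for Arntl, and changed no member's call. Same-numbered arrays had deviations correlated at 0.0082 to 0.019, so the numbers are not taken as pairs. The 273 genes of the contrast became 6 to 1492 without 1 array. The cause of these shifts was not tested. Probes with repeated values, taken as dim, limit Per3, Cry1 and parts of Per2, Cry2, Nr1d1 and Tef.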
